A study of Zea mays with 16 samples.

Results

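Fertile anthers of 2 maize families, ms23 and ms32, were compared with each other, to see how far the anther transcriptomes of the families lay apart in plants that were not sterile. The study profiled whole anthers of 1.5 mm, collected from field-grown plants, in 4 groups that were named after the family and the phenotype: ms23 fertile siblings (2 samples), ms32 fertile siblings (2 samples), ms23 mutants (6 samples) and ms32 mutants (6 samples). Every array held 2 samples, one labelled with Cy3 and one with Cy5, and 8 arrays on 2 slides held all 16 samples. The 2 samples of a fertile group were a Cy3 and a Cy5 sample under 1 replicate number, and each mutant had 3 such numbers. The labels give neither the zygosity of the fertile siblings at ms23 or ms32, nor the inbred background of either family, nor how many plants gave a sample. Nothing in the labels says that samples of a group came from separate plants, whereas the series text speaks of 2 biological replicates for each comparison of a mutant with its sibling, so the spread may be partly technical.

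Probes entered the comparison if the deposited table of values gave them above 0 in both dyes of at least 1 family. Of the 42034 probes on the array, 31753 (75.5%) met that rule and 10281 did not. Of the 31753, 26791 were above 0 in all 4 fertile samples and could be compared as ratios, 1758 were listed at 0 in both ms23 samples, 338 were listed at 0 in both ms32 samples, and 2866 were listed at 0 in 1 dye of a family.

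The anther is the organ in which pollen forms. Its innermost wall layer, the tapetum, surrounds and feeds the meiotic cells, and it depends on the genes ms23 and ms32, both of which code for transcription factors of the basic helix-loop-helix family. Plants that lack either factor are male-sterile. A sterile mutant is kept as a family that segregates sterile and fertile plants, and families of different descent carry different alleles over the genome. Maize lines are known to differ widely in sequence, gene content and transcript levels. Whole anthers mix wall cells, tapetum and meiotic cells, so fewer cells of a type and less RNA per cell cannot be told apart. No probe carried the name ms23 or ms32, so neither gene was analysed here.

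The ms23 fertile samples lay on arrays 3 and 4 of slide 2, each beside an ms23 mutant, and the ms32 fertile samples on arrays 1 and 2 of that slide, each beside an ms32 mutant. Family and array therefore cannot be told apart among the fertile samples. Column medians of the value table were 122.4 in all 4. The scanner software marked 82.6% to 85.0% of the probes as well above background in the fertile samples, within the 81.2% to 94.8% of all samples. Values of 0 made up 27.9% (Cy3) and 30.6% (Cy5) of the ms23 fertile columns, against 21.8% and 22.7% of the ms32 fertile columns. Of these zeros, 38.7% and 50.9% were marked as well above background in the ms23 fertile samples, against 20.3% and 27.1% in the ms32 fertile samples, so a 0 in the table was not by itself a dark spot. The number of arrays limits the precision of every value.

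The anther transcriptomes of the fertile siblings were alike for most probes and far apart for a small share. On the log2 scale, levels over the 26791 probes correlated at 0.960 between the Cy3 and Cy5 samples of the ms23 family and at 0.948 between those of the ms32 family. Between the families the correlation was 0.913 within Cy3 and 0.882 within Cy5. The points are probes of 1 array design and no replicates of a condition. The mean of the Cy3 and Cy5 differences, ms23 minus ms32, had a median of 0.06, and 82.9% of the probes differed by less than 2-fold. The outer 5% at each end lay below -1.37 and above 1.31.

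The families' differences recurred between the dyes. Cy3 differences had a median of 0.04 and an SD of 0.94 across probes, and Cy5 differences a median of 0.05 and an SD of 1.1. The Cy3 and the Cy5 difference of a probe correlated at 0.62 (Spearman 0.462) over the 26791 probes, and none of the 4 samples entered both. A probe that differed at least 2-fold in the same direction in both dyes was counted as a description of size, without a test. By this rule 1225 probes were higher and 1372 lower in ms23 fertile siblings, together 2597 (9.69%), whereas 161 differed at least 2-fold in opposite directions in the 2 dyes. The scanner software's processed signals turned the balance, with 1839 probes higher and 1331 lower. At least 4-fold in both dyes were 329 probes higher and 349 lower, at least 8-fold 128 higher and 156 lower, and at least 32-fold 30 higher and 24 lower.

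**Figure D1:**
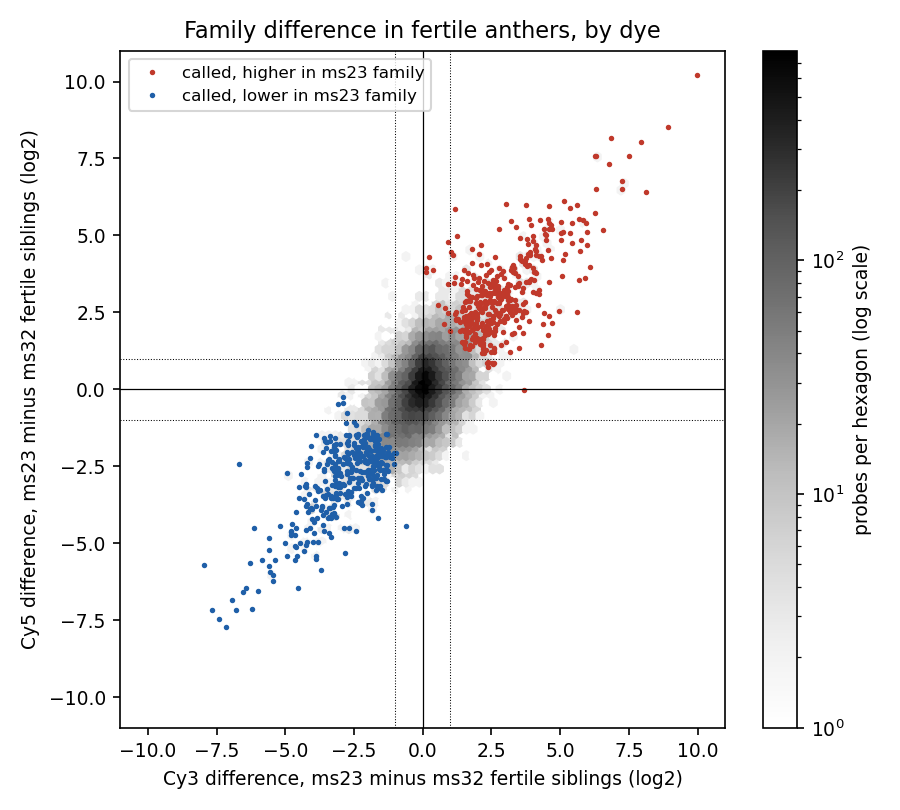
Log2 difference of ms23 minus ms32 fertile siblings in Cy3 (x axis) and in Cy5 (y axis) for 26791 probes, shaded by the number of probes per hexagon, with dotted lines at 2-fold. Red and blue points are the 408 probes higher and the 374 probes lower in the ms23 family by limma, and 781 of these 782 had the same sign in both dyes.

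For a test, the dyes of a replicate number were averaged and limma was fitted to all 8 averages, so that the spread came from the 3 replicate numbers of each mutant, and the single average of each fertile group was assumed to vary as they did. At an adjusted p under 0.05, 782 of 26791 probes (2.92%) differed between the fertile siblings, 408 of them higher and 374 lower in the ms23 family. They carried 774 target names. The median called difference was 2.74 among the higher probes and -2.62 among the lower ones, and the smallest was 1.36 in size. Without adjustment 4375 probes had p under 0.05, 2097 higher and 2278 lower. With a replicate block, in which replicate numbers pair the samples, the calls numbered 1654. With the Cy3 columns alone they numbered 129.

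The called targets that rose most in the ms23 family had values of 5764.0 or more in ms23 fertile siblings, against 756.5 or less in ms32 fertile siblings, and in 3 of the 10 both ms32 fertile values were above the column median of 122.4. Names that start with TC are consensus sequences assembled from expressed sequence tags, without a gene symbol in the files. TC280899 had values of 89932.5 and 78413.5 (Cy3 and Cy5) in ms23 fertile siblings, against 89.5 and 66.8 in ms32 fertile siblings, a 1086-fold difference (log2 10.08, SE 0.38, limma adjusted p = 0.000431). Its 6 ms23 mutant values ran between 76259.7 and 153350.3 with a median of 99469.3, against 0 to 1415.0 with a median of 461.9 in ms32 mutants. All 8 ms23 samples were thus above all 8 ms32 samples. The ms32 mutant replicate with a value of 0, replicate 3, was dropped from the fit of this probe. It was the only ms32 mutant replicate that shared no array with an ms23 mutant.

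TC279755 had 35010.6 and 25486.5 in ms23 fertile siblings, against 71.2 and 69.8 in ms32 fertile siblings (log2 8.73, SE 0.75, limma adjusted p = 0.00163). Its mutant values were 17069.7 to 39406.3 (median 33499.9) in ms23 and 60.3 to 327.0 (median 147.8) in ms32. The families did not overlap in any of the 16 samples. TC292099 was measured well above the low end in both families, at 138041.0 and 88235.4 in ms23 fertile siblings, against 756.5 and 465.5 in ms32 fertile siblings. Its difference of 7.54 (SE 0.78, limma adjusted p = 0.00273) was met by 7.54 in the mutants, where ms23 values ran between 52232.9 and 135508.5 and ms32 values between 202.4 and 1060.4. TC287518 likewise had 31255.5 and 28435.1 in ms23 fertile siblings, against 203.8 and 259.8 in ms32 fertile siblings, and differed by 7.02 (SE 0.51, limma adjusted p = 0.000971) in fertile siblings and by 6.32 in mutants.

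TC291341 stood apart among these targets. It had 7433.8 and 16978.2 in ms23 fertile siblings, against 63.7 and 59.8 in ms32 fertile siblings, a difference of 7.51 (SE 0.79, limma adjusted p = 0.00295). In ms23 mutants its values were only 110.5 to 884.7 (median 432.7), against 57.2 to 123.6 (median 67.0) in ms32 mutants, so the mutant groups overlapped and differed by 2.19 (limma adjusted p = 0.0168). The fertile minus the mutant difference was 5.31, with a limma adjusted p of 0.33. TC295437 followed a similar course, with 7242.9 and 10925.9 in ms23 fertile siblings, against 66.3 and 67.8 in ms32 fertile siblings, while ms23 mutants had 581.6 to 3033.7 and ms32 mutants 46.9 to 99.7. TC280400 had 47719.8 and 32626.2 in ms23 fertile siblings, against 171.0 and 380.5 in ms32 fertile siblings, with 6084.9 to 10805.7 in ms23 mutants and 78.6 to 240.0 in ms32 mutants. In all 3 of these targets the ms23 mutant values lay below both ms23 fertile values. That contrast of mutant and sibling was not part of the comparison here and was not tested.

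The other 3 of the 10 largest called rises had values as follows. TC280499 had 13450.3 and 16253.8 in ms23 fertile siblings, against 55.0 and 61.9 in ms32 fertile siblings, TC314012 had 5764.0 and 12414.4 against 73.6 and 64.4, and TC312134 had 6025.5 and 11243.1 against 78.5 and 58.4, in the same order of families. Both ms32 fertile values of TC280499 were in the lowest 10% of the positive values of their columns. In TC312134 the ms32 mutant replicate 3, with 0 and 65.1, was dropped from the fit. Over the 10 targets the fitted differences ran between 6.93 and 10.08, with limma adjusted p between 0.000431 and 0.0245. In the processed signals of the scanner software the same targets differed by 7.38 to 11.34, and in loess ratios linked through the mutants by 4.89 to 7.24, where TC280899 differed by 7.11.

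The called targets that fell most in the ms23 family had 62.4 to 165.4 in ms23 fertile siblings, against 4216.7 to 31024.8 in ms32 fertile siblings. AI737914, named after a single expressed sequence tag, had 110.2 and 148.4 in ms23 fertile siblings, against 15620.9 and 31024.8 in ms32 fertile siblings, 172-fold lower in ms23 (log2 -7.43, SE 0.51, limma adjusted p = 0.000971). Mutant values were 127.0 to 801.1 (median 205.3) in ms23 and 16011.4 to 45844.2 (median 30346.8) in ms32. No ms23 sample reached any ms32 sample. TC293429 had 119.6 and 165.4 in ms23 fertile siblings, against 13248.8 and 23605.5 in ms32 fertile siblings (log2 -6.97, SE 0.62, limma adjusted p = 0.00177), and 145.6 to 473.0 in ms23 mutants, against 7544.1 to 13422.0 in ms32 mutants.

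TC294462 had 68.3 and 64.8 in ms23 fertile siblings, against 11621.8 and 11563.8 in ms32 fertile siblings (log2 -7.45, SE 0.44, limma adjusted p = 0.000971). Both ms23 values were in the lowest 10% of their columns. Its mutant values were 0 to 597.1 in ms23, where the replicate with the 0 was dropped from the fit, and 6558.6 to 19797.1 in ms32. TC298607 had 92.3 and 75.7 in ms23 fertile siblings, against 18969.0 and 10820.3 in ms32 fertile siblings, with 1 ms23 mutant replicate dropped for the same reason. TC291577 had 66.6 and 85.6 in ms23 fertile siblings, against 8104.0 and 9924.4 in ms32 fertile siblings. In TC298607 and TC291577 every ms32 sample was above every ms23 sample.

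TC298283 was the one of these 10 targets whose dyes agreed least, at 62.4 and 80 in ms23 fertile siblings, against 15463.1 and 4216.7 in ms32 fertile siblings. TC312927 had 75.8 and 114.0 in ms23 fertile siblings, against 5669.1 and 15902.1 in ms32 fertile siblings, and its ms32 mutants had only 792.1 to 3469.2 (median 1812.4), above the 65.8 to 122.8 of ms23 mutants. TC303629 had 74.9 and 96.6 in ms23 fertile siblings, against 6950.3 and 9327.5 in ms32 fertile siblings. In all 3 targets the ms23 values, fertile and mutant, were at 539.5 or less. CX129480 had 75.6 and 93.1 in ms23 fertile siblings, against 6503.3 and 8113.7 in ms32 fertile siblings, and TC310835 had 86.3 and 99.3 against 5511.0 and 9226.0 in the same order. The call of CX129480 (limma adjusted p = 0.0407) was lost without ms23 mutant replicate 1 and without ms32 mutant replicate 3, at an unchanged difference of -6.44. Over these 10 targets the fitted differences ran between -7.45 and -6.27, the processed signals gave -9.33 to -6.88, and the linked loess ratios gave -6.68 to -4.18.

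**Figure D2:**
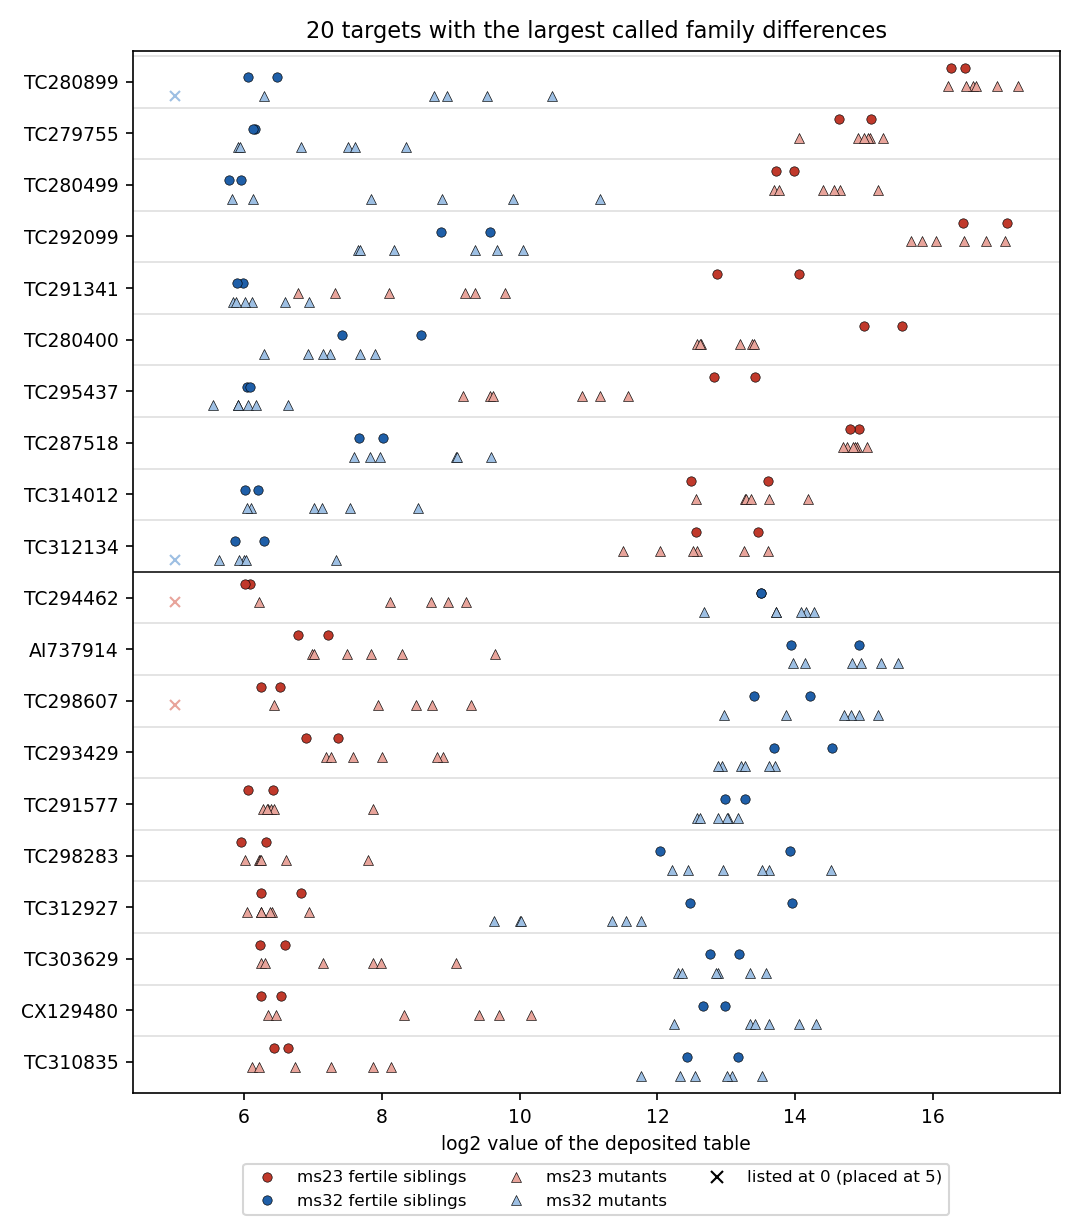
Log2 values of the deposited table (x axis) for the 10 targets with the largest called rises (top) and falls (bottom) in the ms23 family, 1 point per sample, with fertile siblings as circles and mutants as triangles, red shades for ms23 and blue shades for ms32. Crosses mark values listed at 0. All ms23 mutant values lay on the same side of all ms32 mutant values in 19 of the 20 targets, the exception being TC291341. The targets were picked for their large called differences, and the same count was not made over all probes.

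Positive values of the table begin at 52.5 to 57.6 in the fertile columns. In 19 of the 782 called probes, both values of the lower family were in the lowest 10% of positive values, 11 of them higher and 8 lower in the ms23 family. All 782 called differences had the same sign in the scanner software's processed signals, and the table's difference was a median 0.875 of the processed one. For the probes listed at 0 in 1 family no ratio exists.

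Such zeros were far more frequent in the ms23 than in the ms32 fertile columns, at 1758 against 338 probes. When the scanner's marks had to show the same contrast, with both samples of one family well above background and neither of the other, 383 (21.8%) remained for ms23 at 0 and 204 (60.4%) for ms32 at 0. By the marks alone, whatever the table listed, 706 probes were well above background only in ms23 fertile siblings and 661 only in ms32 fertile siblings, so the imbalance between the families was in the table's zeros and not in the marks. Most were dim in the family with a value, with a median of 100.7 in ms23 where ms32 was at 0 and of 67.6 in ms32 where ms23 was at 0.

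A few were bright. TC298763 had 33977.8 and 35956.9 in ms23 fertile siblings and was listed at 0 in both ms32 fertile samples, neither of them well above background. In mutants it had 23300.6 to 58238.7 in ms23, against 0 to 379.8 in ms32, where 4 of 6 values were above 0. The other 4 targets of this kind were TC300904 (5980.0 and 10820.3), TC311709 (4785.2 and 7374.2), TC309167 (4714.4 and 5792.3) and TC292945 (6200.6 and 3284.1), each listed at 0 and not well above background in both ms32 fertile samples. All 5 were above 0 in all 6 ms23 mutants, at 1286.7 or more, and in 3 or 4 of the 6 ms32 mutants, at 379.8 or less. Those positive ms32 values were all of replicates 1 and 2, which shared arrays with ms23 mutants. Replicate 3 of the ms32 mutants, on arrays without an ms23 sample, was at 0 in both dyes in all 5. The part of the shared arrays in this was not tested.

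In the other direction, TC301073 was listed at 0 in both ms23 fertile samples and had 16587.0 and 13133.0 in ms32 fertile siblings. TC305187 had 13756.7 and 7116.6, TC304850 11674.2 and 7415.0, TC293200 11169.9 and 6207.0, and TC309848 10766.0 and 5559.6 in ms32 fertile siblings, all listed at 0 in ms23 fertile siblings. Only TC305187 of these 5 was below the background mark in both ms23 fertile samples, and TC304850 and TC309848 were marked as well above background in both, so their zeros did not stand for dark spots. In mutants the 5 had 0 to 628.9 in ms23, against 993.5 to 21638.1 in ms32. Replicates 1 and 2 of the ms23 mutants, which shared arrays with ms32 mutants, had 73.6 or more. Replicate 3 of the ms23 mutants, on arrays without an ms32 sample, had 60.6 or less. Of the 204 probes with the full contrast of marks and ms32 at 0, 146 were above 0 in all 6 ms23 mutants and 34 were at 0 in all 6 ms32 mutants, and 23 did both. Of the 383 with ms23 at 0, 93 were at 0 in all 6 ms23 mutants and 193 above 0 in all 6 ms32 mutants, and 48 did both. The same counts were not made over all probes.

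Of 51 tested probes that carried a gene symbol, an element name or another name, 1 was called (1.96%, against 2.92% of all probes), and it was a probe of the MuDR transposon. MuDR is the autonomous element of maize's Mutator system, and its mudrA gene encodes the transposase. The MUDR-TIRA probe, named after the terminal inverted repeat next to mudrA, had 193.5 and 157.6 in ms23 fertile siblings, against 3133.2 and 2929.0 in ms32 fertile siblings, 17.3-fold lower in ms23 (log2 -4.12, SE 0.55, limma adjusted p = 0.00675). In mutants its values were 122.2 to 389.9 in ms23, against 1111.6 to 1710.4 in ms32, a difference of -2.85 (limma adjusted p = 0.000855). No ms23 sample overlapped any ms32 sample.

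Of the 4 MuDR probes, 1 fell and 3 did not pass the test in fertile siblings, with a median difference of -0.93 against 0.06 over all probes. MUDRB, named after the element's second gene, had 302.0 and 305.5 in ms23 fertile siblings, against 481.4 and 734.4 in ms32 fertile siblings (log2 -0.97, SE 0.41, limma adjusted p = 0.288). In the mutants MUDRB passed the test at -1.1 (limma adjusted p = 0.0189). MUDRA-21 had 290.5 and 204.3 in ms23 fertile siblings, against 500.2 and 403.6 in ms32 fertile siblings (log2 -0.88), and the MUDRA probe had 167.7 and 184.0 against 99.1 and 157.2 in the same order (log2 0.49). The probes of 1 element thus gave unequal differences.

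Genes of meiosis and of the cohesin complex, which holds sister chromatids together, had too few tested probes for their calls to be told from the share over all probes. AM1 is needed for the entry into meiosis, SGO1 protects cohesin at centromeres, and SMC1, SMC3 and RAD21 are cohesin subunits. Of 17 probes with these names 13 were above 0 in all 4 fertile samples, and 0 passed the limma test, against 2.92% of all probes, with 1 at an unadjusted p under 0.05 and 0 by the 2-fold rule in both dyes. Their differences ran between -1.09 and 0.34 with a median of -0.28, against 0.06 over all probes, and 11 of 13 were below 0. In the mutants the same 13 had a median of -0.04, and 0 of them passed the test.

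The 3 AM1 probes did not give 1 answer. One had 363.0 and 477.9 in ms23 fertile siblings, against 426.3 and 285.9 in ms32 fertile siblings, with opposite signs in the dyes. Another had 101.8 and 73.8 in ms23 fertile siblings, against 176.0 and 192.3 in ms32 fertile siblings, and was the 1 with an unadjusted p under 0.05 (log2 -1.09, SE 0.37, limma adjusted p = 0.195). The third gave 0.34 (SE 0.32). ZmSGO1 had 91.1 and 79.6 in ms23 fertile siblings, against 102.0 and 267.7 in ms32 fertile siblings (log2 -0.96, SE 0.44, limma adjusted p = 0.335), a difference carried by the Cy5 samples. The 4 ZmSMC3 probes lay between -0.51 and -0.07, and the brightest of them had 2976.0 and 2180.0 in ms23 fertile siblings, against 3171.0 and 4129.7 in ms32 fertile siblings. The 2 ZmSMC1 probes gave -0.63 and -0.15. Of 7 ZmRAD21 probes only 3 were above 0 in all 4 samples, at -0.28 to -0.05. Their fertile values, 65.9 to 106.0, were all below the column median of 122.4, so their small differences say little. None of the differences of the genes in this paragraph passed the test.

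**Figure D3:**
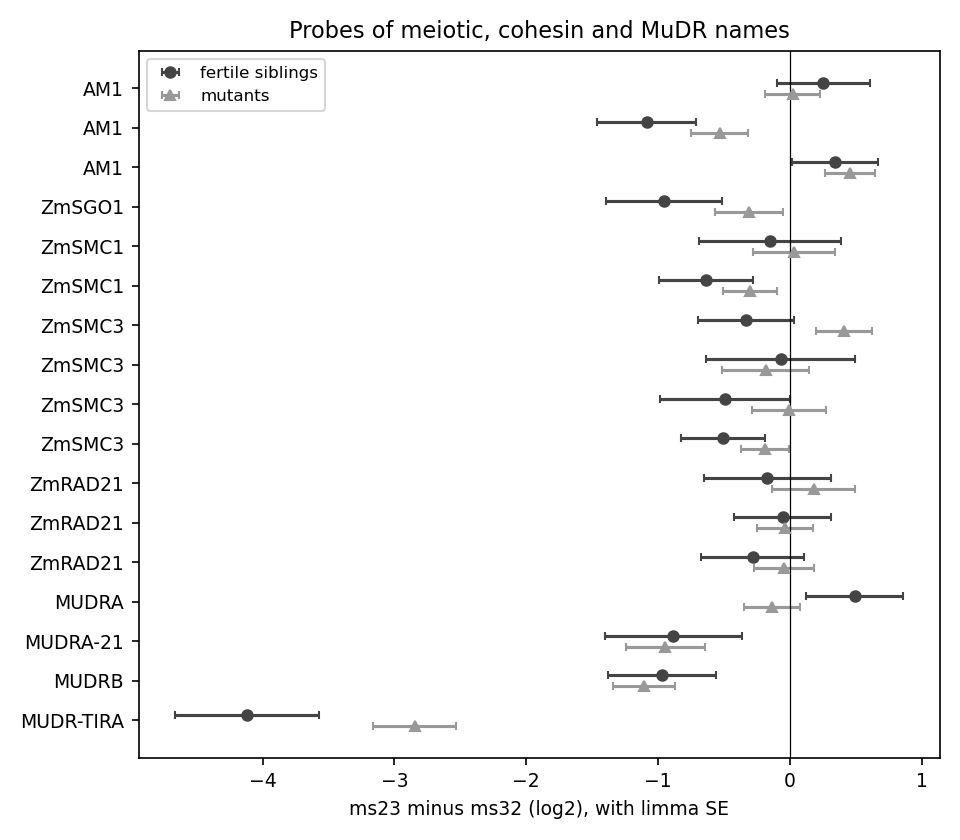
Difference of ms23 minus ms32 (x axis, log2, bars are the limma SE) for each probe of AM1, ZmSGO1, cohesin and MuDR names that was above 0 in all 4 fertile samples, in fertile siblings (circles) and mutants (triangles). MUDR-TIRA lies at -4.12 in fertile siblings and -2.85 in mutants, and the meiotic and cohesin probes lie between -1.09 and 0.34 in fertile siblings.

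The same families could be compared in their mutants. The fertile and the mutant difference shared no sample, whereas the limma calls in fertile siblings took their spread from the mutants. In the mutant comparison 3403 of 26642 probes (12.8%) passed the limma test, 1755 higher and 1648 lower in ms23 mutants, and 6138 passed with a replicate block. The 2 counts are not on a par, since a mutant group held 3 replicate numbers and a fertile group 1. Replicates 1 and 2 of the mutants lay on slide 1, on arrays without any fertile sample, and gave a check on other arrays. The arrays with a fertile sample held 1 family each, whereas each of these slide 1 arrays held an ms23 and an ms32 mutant. Of the 782 probes called in fertile siblings, 739 had a value there, and 717 (97.0%) had the same sign, against 67.1% of the 25531 tested probes with a value. The calls favour probes with a low spread in these same mutants, and the part of this in the 97.0% was not tested.

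Among probes called higher in ms23 fertile siblings, 364 of 376 were higher in ms23 mutants of slide 1, with a median of 2.74 in fertile siblings and 2.38 in these mutants (quartiles 1.50 and 3.39), and 316 were at least 2-fold higher. Among those called lower, 353 of 363 were lower in the mutants, with medians of -2.62 in fertile siblings and -1.84 in mutants (quartiles -2.75 and -1.21), and 301 were at least 2-fold lower. The medians of the called probes were nearer to 0 in mutants. The parts that choosing probes by their fertile difference and the arrays shared by both families have in this were not tested. Over all tested probes the 2 differences correlated at 0.685 (Spearman 0.511, 25531 probes). With all mutants, 678 of the fertile calls were also called in the same direction, which is 86.7% of the fertile calls and 19.9% of the mutant calls, although both tests used 1 estimate of the spread.

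**Figure D4:**
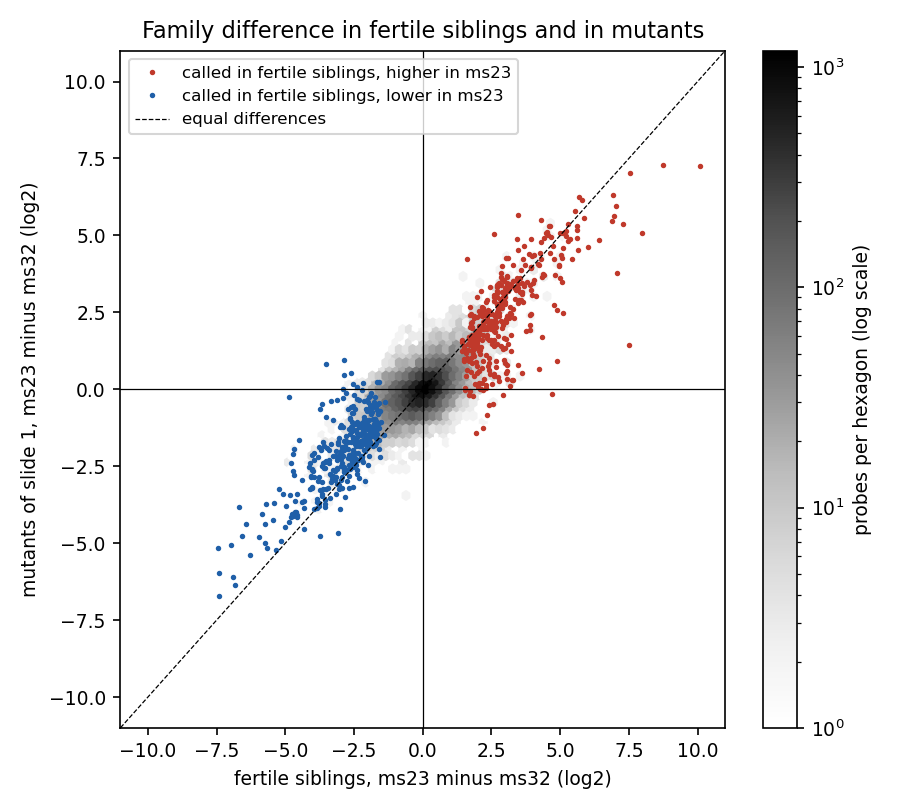
Log2 difference of ms23 minus ms32 in fertile siblings (x axis) and in the mutants of slide 1 (y axis), for 25531 probes shaded by number per hexagon, with the dashed line where both are equal. Red and blue points are the probes called higher and lower in ms23 fertile siblings; 364 of 376 red and 353 of 363 blue points lie on the same side of 0 in the mutants.

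Whether the family difference itself changed between fertile and sterile anthers was tested as the fertile minus the mutant difference. Of 26642 probes, 0 (0%) passed at an adjusted p under 0.05 by limma, and 970 had an unadjusted p under 0.05. With a replicate block 0 passed as well, and 2018 had an unadjusted p under 0.05. Of the 777 fertile calls with both differences, 566 (72.8%) had fertile and mutant differences within 1 of each other on the log2 scale. The same share was not taken over all tested probes, so the 72.8% cannot be read as particular to the calls. No single probe was shown to change in its family difference, with 1 replicate number per fertile family in the test.

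Called in opposite directions were 2 probes, named here after their values were seen. TC281340 had 18360.0 and 4678.0 in ms23 fertile siblings, against 3357.4 and 1744.5 in ms32 fertile siblings (log2 1.94, SE 0.37, limma adjusted p = 0.0326), whereas ms23 mutants had 593.6 to 1133.3 and ms32 mutants 1293.1 to 2324.9 (log2 -1.25, limma adjusted p = 0.00751). TC290061 had 3256.7 and 8028.9 in ms23 fertile siblings, against 1258.6 and 2146.0 in ms32 fertile siblings (log2 1.64, SE 0.31, limma adjusted p = 0.0404), whereas ms23 mutants had 0 to 75.1 and ms32 mutants 69.9 to 193.0 (log2 -0.77, limma adjusted p = 0.0473). In TC290061 an ms23 mutant replicate with a value of 0 was dropped from the fit, and the ms23 mutant median of 70.5 was near the low end of positive values. All 4 fertile values of TC290061 were above all 12 mutant values. The test of the change itself gave adjusted p of 0.214 for TC281340 and 0.33 for TC290061.

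The 2-fold rule in both dyes was applied to every pair of replicate numbers to set the distance of the fertile families beside the others. Fertile siblings of the 2 families differed at 9.69% of probes, with an SD of 0.92 for the mean difference. Mutants of the 2 families differed at 5.16% and 6.57% where they shared arrays and at up to 11.7% where they did not. A mutant and the fertile sibling of its own family differed at 1.28% to 5.38%, and 2 replicate numbers of 1 mutant at 0.774% to 2.55%. The fertile families were thus further apart than any mutant was from its own sibling or from its own replicates by this count. Pairs on shared arrays gave the lowest shares among the mutants of the 2 families and in each family's pairs of mutant and sibling. The pairs reuse samples and were given no test.

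**Figure D5:**
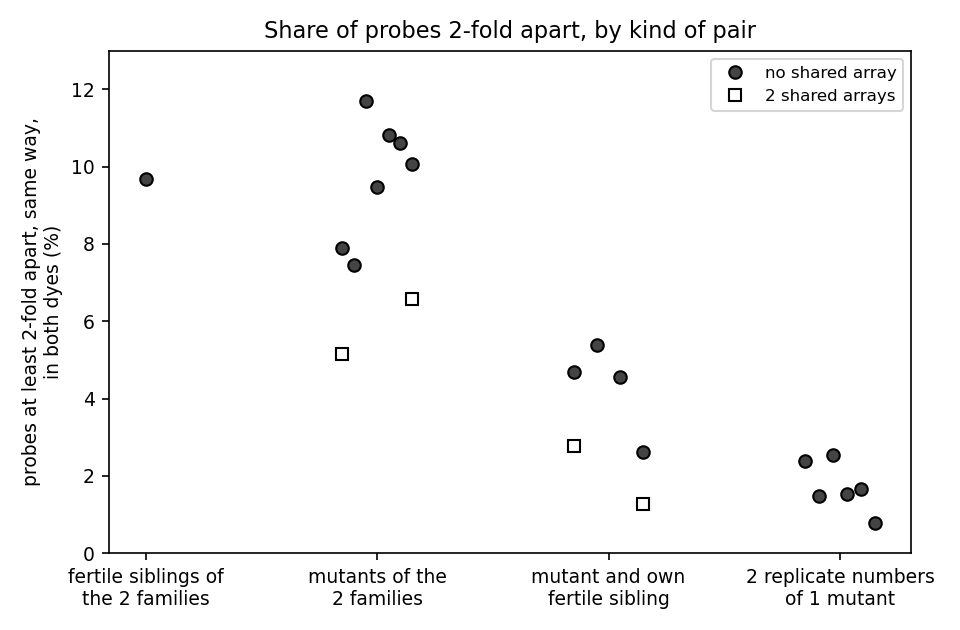
Share of probes at least 2-fold apart in the same direction in both dyes (y axis, percent) for each pair of replicate numbers, by kind of pair, with open squares for pairs that shared 2 arrays. The fertile families lie at 9.69%, mutants of the 2 families at 5.16% to 11.7%, mutants and their own siblings at 1.28% to 5.38%, and replicate numbers of 1 mutant at 0.774% to 2.55%.

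Called probes were found in nearly every class of target name. Of the TC consensus sequences 3.11% of 20440 tested probes were called, and of the single expressed sequence tags 2.32% of 6127, against 2.92% of all. None of 101 probes with MAGI names, which are assembled genomic sequences, passed the limma test, and 5.94% of them passed the 2-fold rule, against 9.69% of all. Of 72 probes with NP names 3 were called, and they are named after their values were seen. NP213089 had 106.8 and 271.6 in ms23 fertile siblings, against 2958.0 and 6791.1 in ms32 fertile siblings (log2 -4.72, SE 0.42, limma adjusted p = 0.00177). NP004561 fell by 1.64 and NP1386566 rose by 1.86 in the ms23 family, with mutant differences of -0.78 and 2.26. All 3 had the same sign in fertile siblings and mutants. No gene or role is annotated to these names in the files.

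The share of calls followed signal strength without growing steadily. When probes were ranked by their mean signal over all samples, 0.56% were called in the dimmest 20% of them, and 2.67%, 4.80%, 4.07% and 2.50% in the next bins of that size. The 2-fold rule gave 2.16%, 8.66%, 13.7%, 12.9% and 11% in the same order. The brightest probes were thus not the ones that differed most often.

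Several probes were available for 1008 targets, with 2097 tested probes. In 614 of these targets (60.9%) all probes had the same sign, and the range between probes of a target had a median of 0.49. A called probe was found in 42 targets, of which 8 had all probes called, 34 had some called, and 0 had probes called in both directions. The range between probes had a median of 2.09 in these 42, which were picked for holding a large difference.

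The widest disagreement was in MAGI4_81813. One of its probes had 446.4 and 1102.5 in ms23 fertile siblings, against 42222.7 and 43091.1 in ms32 fertile siblings (log2 -5.93, SE 1.58, limma adjusted p = 0.099), and the other had 67.0 and 70.4 against 63.1 and 63.4 in the same order (log2 0.12). MAGI4_160472 had 4 probes between -3.53 and 1.50, none of them called. TC289126 had a called probe, with 1616.5 and 1397.9 in ms23 fertile siblings, against 93.9 and 159.6 in ms32 fertile siblings (log2 3.62, SE 0.33, limma adjusted p = 0.00187), and another of the opposite sign, with 183.2 and 125.2 in ms23 fertile siblings, against 322.7 and 440.2 in ms32 fertile siblings (log2 -1.32, SE 0.43, limma adjusted p = 0.178). Both TC289126 probes kept their sign in mutants, at 3.41 and -0.998.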

How the data were processed

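RNA of 1.5 mm whole anthers was amplified, labelled with Cy3 or Cy5 and hybridised, per the labels' protocols. Per the file headers, arrays of Agilent design 016047 went through Feature Extraction 10.5.1.1 of the scanner's maker. A deposited table holds the authors' processed intensity values on a linear scale, 1 column per sample, with column medians of 122.4 to 122.5 and 75th percentiles of 651 to 658, while the share of zeros differed. Limma and Agilent Feature Extraction are named in the submitters' processing notes, and the normalization and the reason for zeros are not given in the sources used here. The deposited scanner files also hold other values, marks of 0 or 1 for spots well above background, saturated or outlying, per the file headers. Positive values correlated with each sample's own background-subtracted spot intensity at 0.986 to 0.999 on the linear scale (rank correlation 0.995 to 1.00). The correlation was 0.470 to 0.580 when the table alone was put on the log2 scale. The values were therefore read as linear and each column as its own sample. The highest value was 288013.9 in every column, and the 99th percentiles ran between 19679.7 and 23861. The columns were thus close to a common distribution, and the step that gave it is not named.

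Control spots (1417) were left out, and 42034 probes with 39174 target names remained. Log2 values, without a pseudocount, were fitted with limma 3.58.1 (R 4.3.3, statmod 1.5.0). Both dyes of a group and replicate number were averaged, and a 0 in either dye made that average missing. A model with 4 group means was fitted to the 8 averages of each probe above 0 in all 4 fertile samples, with 4 residual and 4.29 prior degrees of freedom. Benjamini-Hochberg adjustment was made over all probes tested, and calls were made at 0.05.

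Whether replicate numbers pair the samples was checked on the mutants. Deviations from the group means of same-numbered ms23 and ms32 mutants correlated at 0.542, 0.578 and 0.195 over 24905 probes, for numbers 1, 2 and 3. The ms23 and ms32 mutants of numbers 1 and 2 shared arrays and those of number 3 did not. Pairing by number and pairing by array therefore cannot be told apart. The fertile samples, of number 1, shared their arrays with mutants of number 3.

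Named targets were the 10 largest called differences in each direction with both dyes of 1 sign and all 4 fertile samples well above background, the 5 brightest listed at 0 in each family, probes named after meiotic, cohesin and MuDR genes, and the 3 targets whose probes disagreed most. The members and lists were chosen with earlier results of these data known. Only 4 probes with 2 names matched the RefSeq gene table, so lists of tapetum, pigment, stress and other genes, and positions on chromosomes, were not analysed here. Alternatives covered the averaging, blocks for replicate and slide, variance model, zeros, filters, value source, normalization, dyes, left-out replicates and linked ratios.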

Additional observations from a re-analysis of the deposited data

Results flagged for a closer look

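Mutant values of the 20 targets with the largest called family differences were searched for a sample far from the others by Dixon's criterion. Such a sample was found in 4 of 36 groups of 6 samples. The criterion flags about 1 group in 20 by chance where values are independent. Here a group held each replicate number in both dyes, and all groups drew on the same mutant samples, so that rate need not hold. In TC279755, the Cy5 sample of ms23 mutant replicate 2 had 17069.7, against 30922.8 to 39406.3 in the other 5. In TC294462, the Cy3 sample of ms32 mutant replicate 3 had 6558.6, against 13439.5 to 19797.1. In TC291577 and TC298283, the Cy3 sample of ms23 mutant replicate 2 had 235.5 and 222.6, against 77.5 to 86.9 and 64.8 to 98.0 in the others. None of the 4 values lay within the range of the other family's mutants.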

How the results depend on the processing

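The 782 fertile calls were within 1.5 times that number with slide as a block, an intensity trend, the scanner's processed signals, normexp with loess and Aquantile, renormalized columns, the background filter, Cy5 alone and each mutant replicate left out (633 to 882). They numbered 1309 with dye-labelled samples kept separate, 1654 with the replicate block, 1310 with log2(value + 16), where 541 were higher and 769 lower, 129 with Cy3 alone, 1355 with the 4 fertile columns alone and 491 with loess ratios linked through the mutants. The 3403 mutant calls numbered 6138 with the replicate block, 974 with Cy3 alone, 2175 with Cy5 alone, 7011 with linked ratios, 1033 with replicates 1 and 2 alone, an alternative chosen after seeing the data, and 2013 to 3027 with a replicate left out. The fertile minus the mutant difference gave 0 calls with and without the replicate block, the block being chosen here after seeing the data. The share of fertile calls with the same sign in mutants was 96.9% and became 98.2% with processed signals. The 2-fold rule gave 678 probes at 4-fold, and 1839 higher against 1331 lower with processed signals, where the main values gave 1225 and 1372. Of the 2096 probes listed at 0 in 1 family, 587 also had the marks. Over the 20 targets with the largest called differences, 375 alternative values held 10 lost calls and 0 reversals: 6 of CX129480, 1 each of TC280499 and TC303629 with Cy3 alone, and 1 each of TC294462 and TC298607 with log2(value + 16). The cause of these shifts was not tested. Windows along chromosomes were not run, since the probes used here have no positions.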
